A study of Danio rerio with 49 samples.

Results

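Strictly maternal transcripts are taken here as 200 zebrafish genes. Their messages were abundant in the cleaving wildtype embryo, scarce at the start of gastrulation and nearly absent from whole wildtype larvae. Some of the genes rose again at later stages or were found in larval heads, so the name stands for the rule only. They were chosen from raw counts scaled by the library's total count (CPM). Among 12763 genes with a wildtype mean under 1 CPM at 5 days post fertilization (dpf), the 200 with the largest log2 ratio of the wildtype 4-cell mean to the wildtype shield mean were kept, after 1 CPM was added to each. They are 200 of 32520 genes with values. The wildtype 4-cell, shield and 5 dpf levels therefore chose the genes, and they are given as description with no test.

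A zebrafish embryo starts development on messages that the mother stored in the egg. Its own genome is switched on at the mid-blastula stages, around sphere, and the maternal messages are then removed, first by factors the egg brought along and later by products of the embryo. Many messages of this kind are stored with short poly(A) tails, and losing the tail is the usual first step of their destruction. The libraries were made from poly(A)-selected RNA, so loss of a message and shortening of its tail cannot be told apart. In pooled whole embryos, fewer cells carrying a message and less of it per cell cannot be told apart either. CPM is a share of all counts, so a rise of other messages lowers the CPM of a message whose amount stays the same. Levels described as left, kept or lost are therefore relative, and amounts per embryo were not measured.

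The study compared MZrlig1 embryos, which lack the intact RNA ligase gene rlig1 both maternally, in the egg, and zygotically, in the embryo, with wildtype embryos. All animals were raised at 28 °C, and those for whole-embryo libraries in the dark. Whole embryos were pooled at the 4-cell stage (4 MZrlig1 and 4 wildtype libraries), sphere (2 and 2), shield, bud, 1 dpf and 5 dpf (3 and 3 each). A pool held 10 embryos up to shield and 8 from bud on. A further 13 libraries held heads of 5 dpf larvae, 8 heads a pool, raised in a light and dark cycle and classed as good or bad responders to visual motion. These were 2 MZrlig1 and 4 wildtype libraries of good responders, and 4 MZrlig1 and 3 wildtype libraries of bad responders. The total count was 12313473 to 18355308 per whole-embryo library and 12158453 to 16137782 per head library. All MZrlig1 whole-embryo libraries together held 2 counts of rlig1, against 19 to 1084 counts in each wildtype library. A letter names a replicate pool. The series calls the replicates biological but the labels do not say that pools came from separate spawnings, so the p-values measure the spread between these pools. Replicate a of MZrlig1 at 1 dpf stood apart from all other libraries, and most of the 200 genes were at 0 in it.

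The log2 ratio that ranked the genes was 8.31 for the first, with a median of 3.32 and 2.23 for the last. The first 10 were cldng and cldnd, both claudins of tight junctions, the oocyte histone H2A variant h2af1al, si:dkey-163f14.5, zgc:56231, sinup, fbxo43, buc2l, BTG4 and kpna7. Just inside the limit stood CRYGS at 2.25, elovl8b at 2.23 and CCDC149 at 2.2329. Just outside it were ENSDARG00000075022 at 2.2327, si:dkey-223p19.2 at 2.23 and si:ch211-247g11.2 at 2.22. Another 1876 genes had a ratio at least as large but a wildtype 5 dpf mean of 1 CPM or more, so the requirement of near absence at 5 dpf removed far more genes than it kept. Of the 200 genes, 18 had no name in the sources used, and the names of 14 occur for a second identifier as well, so that reads of close copies could be split between them.

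Levels at the 4-cell stage spanned a wide range. Means ran between 1.79 and 6317 CPM in MZrlig1, with a median of 28.9, and between 3.88 and 8429 CPM in wildtype, with a median of 35.1. On the deposited FPKM scale, which allows genes to be compared per length, the median was 26.7 FPKM in MZrlig1 and 29.4 FPKM in wildtype. The most abundant per length were h2af1al, at 17251 FPKM in MZrlig1 and 24653 FPKM in wildtype, followed by cldnd and cldng. A few genes carried most of the pool: cldnd, h2af1al and the maternal linker histone h1m made up 30.6% of the genes' summed CPM in MZrlig1 and 35.9% in wildtype. The 10 most abundant made up 63.4% in MZrlig1 and 67.6% in wildtype. Messages of the set were short: the median relative length, from counts divided by FPKM, was 0.649 of that of all 9802 genes of at least the same wildtype 4-cell level.

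Summed over the 200 genes, the 4-cell libraries b, c, d and f of MZrlig1 held 65250, 54455, 43106 and 38459 CPM, and the wildtype libraries a, b, c and f held 68276, 59441, 63173 and 47567 CPM. At sphere the sums were 14325 and 13727 CPM in MZrlig1 and 17800 and 18578 CPM in wildtype. At shield they were 783, 1941 and 2758 CPM in MZrlig1 and 1713, 1615 and 1524 CPM in wildtype. The genotypes overlapped at 4-cell and at shield and did not overlap at sphere, where both MZrlig1 pools were below both wildtype pools. At bud the sums were 218, 255 and 225 CPM in MZrlig1, against 222, 295 and 249.8 CPM in wildtype, again with overlap. As shares of all counts the means were 5.03% in MZrlig1 and 5.96% in wildtype at 4-cell, 1.40% and 1.82% at sphere, 0.183% and 0.162% at shield, and 0.0233% and 0.0256% at bud. The pool thus shrank at each stage in both genotypes. It did not reach 0 at shield: 122 genes in MZrlig1 and 120 in wildtype still had a group mean of at least 1 CPM there, and 57 in each genotype did so at bud.

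**Figure D1:**
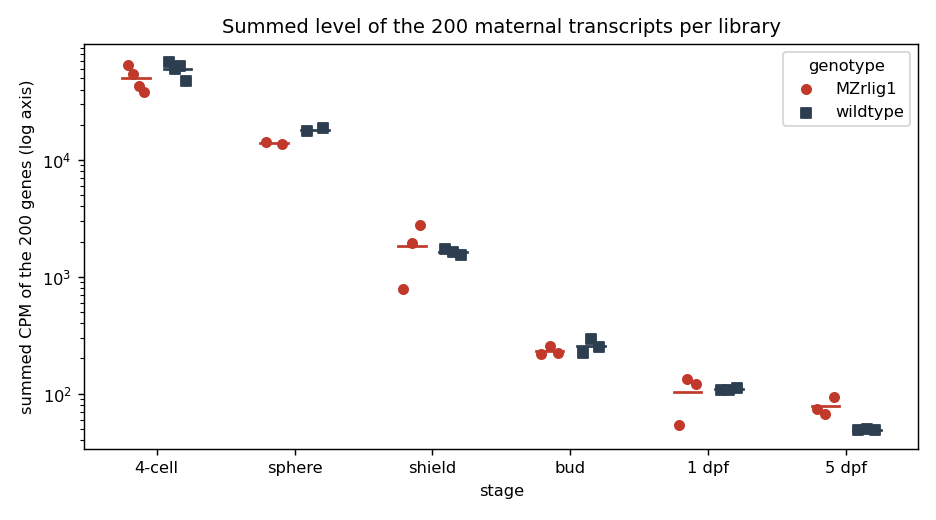
Summed level of the 200 genes in every whole-embryo library (CPM, log axis) by stage, with MZrlig1 points left of wildtype points and a bar at each group mean. The means are 50318 CPM in MZrlig1 and 59614 CPM in wildtype at 4-cell, and 233 and 256 CPM at bud, and the 3 MZrlig1 shield pools lie apart at 783, 1941 and 2758 CPM.

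Single pools differed within a group. In MZrlig1 at 4-cell, pools d and f both lay under pools b and c for 86 of the 200 genes (43.0%), against 19.0% of 12211 genes with a group mean of at least 1 CPM. Among wildtype 4-cell pools, f was the lowest for 126 genes (63.0%), against 40.3% of all such genes. At shield, MZrlig1 pool a was the lowest for 113 of 122 genes (92.6%), against 39.0% of 13863 genes, and pool c the highest for 77 (63.1%), against 39.3%. Of the stage markers, the bud markers MYOD1 and her1, the 2 of 3 with a match, summed to 70.2, 50.4 and 67.0 CPM in the MZrlig1 shield pools a, b and c, and 85.8, 79.3 and 71.7 CPM in wildtype. The 1 dpf markers, also 2 of 3 with a match, summed to 96.0, 8.76 and 17.0 CPM in MZrlig1, and 2.00, 3.16 and 298 CPM in wildtype. The 1 matched 5 dpf marker was at 0.763, 0.280 and 0.308 CPM in MZrlig1, and 0.0689, 0.0545 and 13.1 CPM in wildtype. The summed early zygotic markers vox, ved, vent, tbxta, gsc and noto were 1201, 1472 and 1293 CPM in MZrlig1 and 1395, 1397 and 1275 CPM in wildtype. The part of pool age in the shield spread was not tested. Spawned eggs can carry ovarian follicle cells, and 7 of 9 markers of these had a match. Their 4-cell sum was 98.3 to 149 CPM in MZrlig1 and 69.8 to 102 CPM in wildtype, nearly all of it CYP17A1. The markers hsd17b1 and STAR were at 0, and none of the 200 genes is on that list.

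The first step, up to sphere, separated the genes. The share of the 4-cell mean CPM left at sphere had a median of 50.4% in MZrlig1 and 53.7% in wildtype. In MZrlig1, 55 genes kept under 25% and 36 exceeded their 4-cell level. In wildtype, 40 kept under 25% and 42 exceeded it. The share was lower in MZrlig1 for 129 genes and higher for 70. Scaling by TMM, which lowers the weight of a few dominant genes, turned the order of the medians to 47.0% in MZrlig1 and 45.0% in wildtype, and left 111 genes lower and 88 higher. The order of the medians therefore depends on the scaling, and no difference between the genotypes in overall speed to sphere is read from it.

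The order of the genes was similar in both genotypes. Classed by the wildtype share, which fixes the wildtype medians, the 40 genes with under 25% left in wildtype had a median of 10.1% left in MZrlig1 and 14.4% in wildtype. The 54 genes between 25% and 50% in wildtype had medians of 34.5% in MZrlig1 and 37.3% in wildtype. For the 64 genes between 50% and 100% they were 63.9% in MZrlig1 and 72.4% in wildtype, and for the 42 genes over 100% they were 104% and 130%. Across 199 genes the 2 shares, on a log scale, correlated (Pearson's r 0.794, Spearman's rho 0.821). The points share the libraries of each genotype and are not independent replicates.

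**Figure D2:**
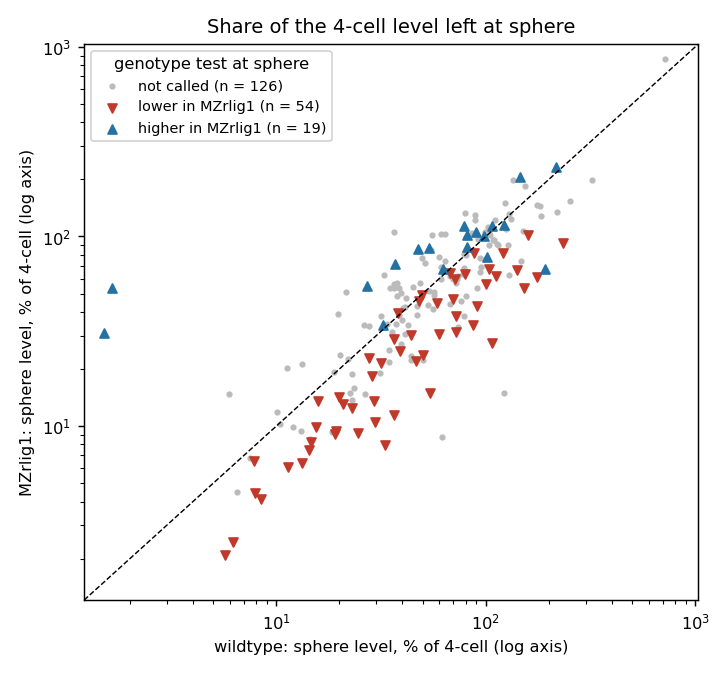
Level at sphere as a percentage of the 4-cell level for each gene in MZrlig1 (y axis) and wildtype (x axis), both on log axes, with the dashed line at equal shares. Colours mark genes called lower (54), called higher (19) or not called (126) in MZrlig1 at sphere, and most genes called lower lie under the line, as their sphere level enters both axes and the test.

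The lowest shares left at sphere in wildtype were those of traj39, tnfsf10l4, CRYGS and org, of which traj39 and CRYGS were low already at 4-cell, at 0 to 14.4 CPM and 1.89 to 6.74 CPM in wildtype pools. Among the first genes of the rule, cldnd and fbxo43 lost much of their level before sphere. The claudin cldnd had 10022, 7085, 4491 and 3672 CPM in MZrlig1 4-cell pools and 10387, 8347, 9289 and 5691 CPM in wildtype ones. It had 254 and 308 CPM at sphere in MZrlig1, against 605 and 726 CPM in wildtype, and 8.32, 51 and 27.5 CPM at shield, against 29.3, 23.8 and 24.2 CPM. Its steep loss before sphere was thus seen in all pools of both genotypes, though in wildtype the high 4-cell level was part of the rule. In MZrlig1 its level fell by 4.78 ± 0.81 (SE) on the log2 scale between 4-cell and sphere (edgeR quasi-likelihood test, Benjamini-Hochberg adjusted p = 0.000861).

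The gene fbxo43 encodes an inhibitor of the anaphase-promoting complex that holds the egg in meiotic arrest. It had 1242, 1345, 818 and 644 CPM at 4-cell in MZrlig1, against 1515, 1262, 1447 and 1053 CPM in wildtype. Only 23.4 and 25.8 CPM were left at sphere in MZrlig1, against 74.9 and 88.3 CPM in wildtype. At shield it had 3.05, 9.74 and 7.69 CPM in MZrlig1, against 11.4, 6.92 and 6.48 CPM in wildtype, and in MZrlig1 it fell by 1.24 ± 0.42 over this step (log2, SE; edgeR adjusted p = 0.0228). For org, an oocyte transcript, the MZrlig1 pools of sphere and shield overlapped and the wildtype ones did not. Low wildtype shield levels were part of the rule, so the wildtype separation is favoured by the choice and no genotype difference is read. It had 27.2 and 27.9 CPM at sphere and 25.4, 35.7 and 25 CPM at shield in MZrlig1, against 78.1 and 97.1 CPM at sphere and 34.8, 32.1 and 31.2 CPM at shield in wildtype. In MZrlig1, org fell by 5.87 ± 0.53 (log2, SE) up to sphere (edgeR adjusted p = 2.38e-06). Its sphere to shield difference of 0.68 ± 0.42 was not called (adjusted p = 0.185), and it fell by a further 3.44 ± 0.42 up to bud (adjusted p = 4.00e-05).

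Other messages lost most of their level after sphere. The genome activator nanog had 1451, 2272, 1842 and 2097 CPM at 4-cell in MZrlig1, against 1487, 1696, 1715 and 2133 CPM in wildtype, and 1469 and 1458 CPM at sphere, against 1772 and 1729.8 CPM. It dropped later, to 65.3, 129.7 and 299.8 CPM at shield in MZrlig1, against 131, 152 and 134 CPM in wildtype, and to 11.7, 14.0 and 12 CPM at bud, against 17.4, 9.83 and 16.6 CPM. The genotypes overlapped at 4-cell, shield and bud. In MZrlig1 the first step was -0.64 ± 0.41 on the log2 scale and not called (adjusted p = 0.238), and the second fell by 2.58 ± 0.42 (adjusted p = 0.00029, edgeR).

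WEE2, an oocyte kinase that inhibits Cdk1, was lower at sphere than at 4-cell without overlap in both genotypes, and lower again at shield, with 1304 to 1537 CPM at 4-cell, 946 to 974 CPM at sphere, 21.4 to 124 CPM at shield and 1.09 to 2.31 CPM at bud in MZrlig1. Wildtype pools had 1381 to 1576, 886 to 955, 75.4 to 81.6 and 2.37 to 3.74 CPM at these stages, where the 4-cell and shield levels were part of the rule. Its first step in MZrlig1 was -0.83 ± 0.49 on the log2 scale and not called (edgeR adjusted p = 0.205). The nuclear poly(A)-binding family member pabpn1l did not lose any of its mean level before sphere, with 134 to 225 CPM at 4-cell and 208 and 234 CPM at sphere in MZrlig1, against 139 to 205 CPM and 200.3 and 226 CPM in wildtype. By shield it had 5.62, 25.2 and 25.1 CPM in MZrlig1 and 22.7, 20 and 22.6 CPM in wildtype.

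The highest shares left at sphere in wildtype belonged to si:rp71-45k5.2, bdp1, a subunit of the RNA polymerase III factor TFIIIB, si:ch211-119o8.6 and si:dkey-182m1.2. The message si:rp71-45k5.2 had 6.38 to 9.64 CPM at 4-cell and 74.2 and 70.4 CPM at sphere in MZrlig1, against 9.42 to 15.2 CPM and 83.5 and 76.0 CPM in wildtype. It was called higher at sphere than at 4-cell in MZrlig1, by 2.86 ± 0.34 on the log2 scale (edgeR adjusted p = 1.23e-05). For a gene of this kind the rule selects on the 4-cell and shield levels and does not see the peak between them.

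**Figure D3:**
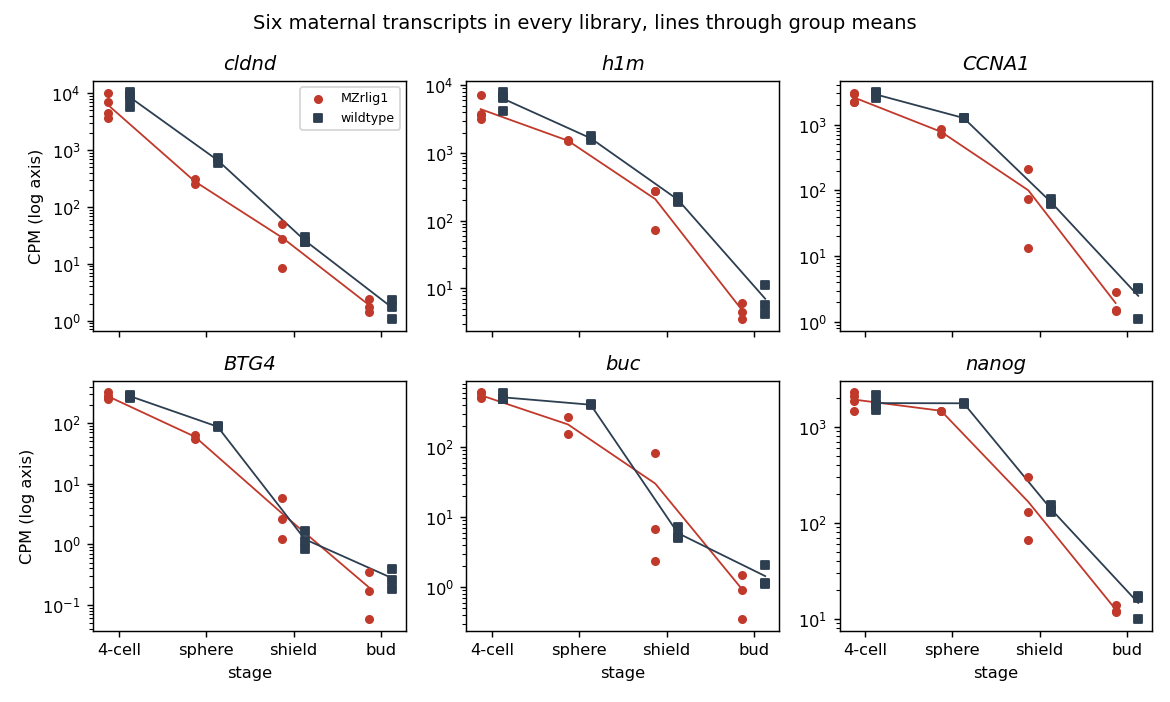
Level in every pool (CPM, log axis) of cldnd, h1m, CCNA1, BTG4, buc and nanog at 4-cell, sphere, shield and bud, MZrlig1 left of wildtype, with lines through the group means. The cldnd level is already down to 254 and 308 CPM in MZrlig1 and 605 and 726 CPM in wildtype at sphere, whereas nanog is still at 1458 to 1469 CPM and 1729.8 to 1772 CPM.

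The steps were tested in the MZrlig1 libraries, which the rule had not used, in a fit of 12 libraries with 18214 genes. A gene is called when its adjusted p is under 0.05. Between 4-cell and sphere 97 of the 199 genes tested were called lower and 1 higher, where 17.0% and 24.5% of all genes tested were called in these directions. The median log2 fold change was -1.25. Without MZrlig1 sphere pool e the count of lower calls was 63, and without pool f it was 62. Between sphere and shield 171 were called lower and none higher, against 23.8% and 31.8% of all genes. The median was -2.50, or -2.48 with genes at 0 taken at their bound of 3 counts over the group. Leaving out shield pool a, the lowest one, left 154 lower calls.

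Between shield and bud 139 were called lower and 3 higher, against 22.1% and 23.0% of all genes, with a median of -2.86. In 13 genes one of these groups was at 0, and with these at their bound the median was -2.63. Over the whole interval from 4-cell to shield 197 were called lower and none higher, against 30.3% and 43.3% of all genes, with a median of -3.75. The 2 tested genes not called were si:dkey-15n5.6 and CRYGS. The gene traj39, found in pool b alone among the MZrlig1 4-cell pools, did not pass the filter on counts and was not tested. Because the genes were selected for this fall in wildtype, the counts say that the MZrlig1 libraries showed it too and carry no measure of its strength. Of the fixed lists as a whole, the genes called at shield against 4-cell were 17 lower and 2 higher of 23 for germ plasm and piRNA, 17 and 5 of 24 for maternal-effect mutants, and 16 and 5 of 26 for oocyte and meiosis. For mRNA storage and decay they were 26 lower and 21 higher of 59, for the early cell cycle 18 and 16 of 42, for oocyte chromatin 7 and 6 of 16, for the egg coat 9 and 1 of 22 and for genome activation 4 and 9 of 14. Between shield and bud, 22 of 22 egg coat genes were called lower, beside 19 of 23 for germ plasm and piRNA, 19 of 26 for oocyte and meiosis and 17 of 24 for maternal-effect mutants.

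By step, 81 genes were called lower at both of the first steps, and 16 up to sphere but not from sphere to shield. Another 90 were called lower from sphere to shield but not up to sphere, and 13 at neither, the untested traj39 among them. In 54 genes all 3 steps up to bud were called lower. A missing call does not mean that a gene did not fall. Between 4-cell and sphere the log2 fold change was negative in 181 of the 199 genes tested, while 97 were called lower. The joint counts have no matching share of all genes tested beside them and are a description. The smallest falls from 4-cell to shield among those called in MZrlig1 were those of ENSDARG00000095486, by 1.23 ± 0.27 (log2, SE; edgeR adjusted p = 0.000857), and of avd, an avidin gene, by 1.46 ± 0.41 (adjusted p = 0.00643). The 3 genes called higher at bud than at shield were PI15, by 2.11 ± 0.67, cirop, by 1.84 ± 0.57, and tex30, by 2.75 ± 0.56. These 3 were named after their values were seen. In cirop the values were 1.25, 2.54 and 2.4 CPM at bud, against 0.208, 0.14 and 1.17 CPM at shield in MZrlig1, and 0.839, 1.99 and 1.65 CPM, against 0.414, 0.0545 and 0.282 CPM in wildtype. Its level at bud was above that at shield in both genotypes, without overlap. Genes were chosen to be low at wildtype shield, so the wildtype order is favoured by the choice and adds no support. Several of the shield levels are near the floor of 3 counts.

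In wildtype, sphere and bud are the early stages whose levels the rule did not use, but shield lies between them and the genes were chosen to be low there. Of 196 genes tested there, 188 were called lower at bud than at sphere and none higher, where 33.4% and 36% of all genes tested were called in these directions. The median log2 fold change was -5.33. Genes enter this test mainly through their sphere level, so the direction is largely fixed by the choice of genes and the counts are a description. The largest fall among the named genes was that of si:rp71-45k5.2, which had no count in any wildtype bud pool. As a description in the same sense, the maternal linker histone h1m fell by 7.33 ± 0.54 (log2, SE) over the interval, and nanog fell by 6.43 ± 0.25.

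**Figure D4:**
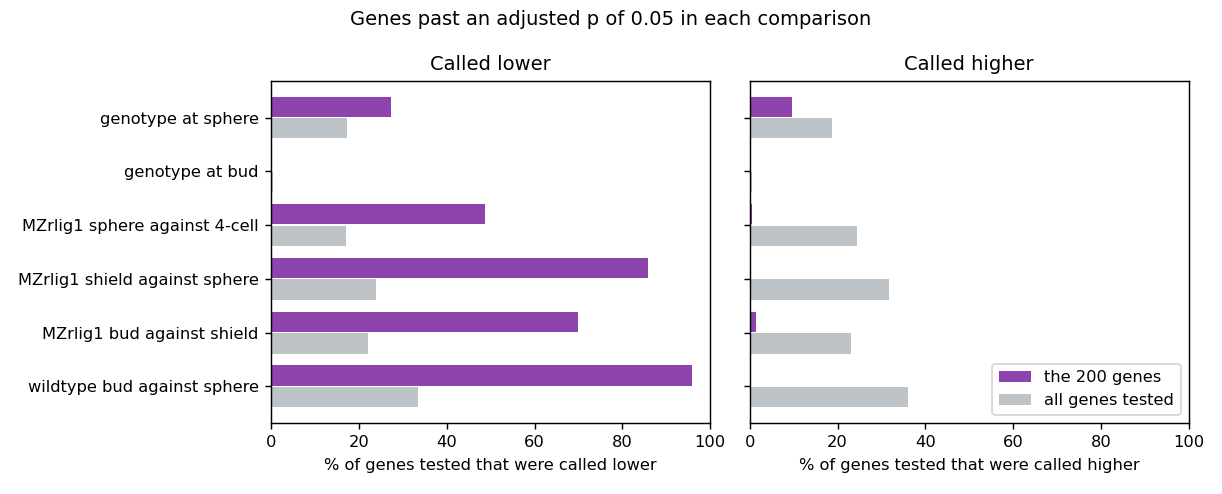
Percentage of genes called lower and higher (adjusted p under 0.05) among the 200 genes and among all genes tested, in 6 comparisons. At sphere the genes were called lower in MZrlig1 in 54 cases and higher in 19, against 17.2% and 18.8% of all genes, and at bud in none.

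At sphere the MZrlig1 pools held less of many of these messages than the wildtype pools. Of 198 genes tested, 54 were called lower and 19 higher in MZrlig1, where 17.2% and 18.8% of all 15093 genes tested were called in these directions. The median log2 fold change of the 198 was -0.24, against -0.02 for all genes tested. On the CPM scale these medians were -0.37 and -0.18 at sphere, and -0.17 and 0.01 at 4-cell, which the rule used in wildtype. The rule chose genes for a high wildtype 4-cell level, which can carry over to sphere. A lower MZrlig1 level at sphere is therefore partly fixed by the choice, and the counts of this comparison are a description. By overlap of the pools, 124 genes lay entirely lower and 25 entirely higher in MZrlig1, against 49.5% and 23.9% of all genes. An unadjusted p under 0.05 was reached by 95 of the 198, where 45.5% of all genes reached it. DESeq2 called 50 lower and 15 higher, against 13.5% and 16.3% of all genes. By rank in the rule, 27 of the first 50 genes were called lower and 2 higher. Of ranks 51 to 200, 27 were lower and 17 higher. The rank comes from the wildtype 4-cell and shield levels that chose the genes, and no share of genes of like level stands beside it. Nothing is read from this split.

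These calls rest on 2 pools a genotype. When each sphere pool was left out in turn, which leaves 1 pool in a group, the median log2 fold change ran between -0.25 and -0.21. The number of calls rose or fell with the pool left out. When the spread was taken over all 36 whole-embryo libraries, 1 gene was called lower, pla2g4f.2, and none higher. With the same fit but without MZrlig1 1 dpf pool a, 6 were lower (tdrd6b, ENSDARG00000094737, tuba4l, pla2g4f.2, fbxo43 and ENSDARG00000117638) and 1 higher (gdf3). Calls over all genes dropped too, to 20 lower and 71 higher of 22995 in the former fit and 415 and 564 of 22985 in the latter. The early zygotic markers, none of them at 0, summed to 259.5 and 307 CPM in the MZrlig1 sphere pools, against 175 and 180.01 CPM in the wildtype ones. Developmental age at collection moves with the levels of maternal messages, and its part in the difference was not tested.

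Among the genes called lower at sphere, the 4-cell mean was also lower in MZrlig1 for 42 of 54, and of the 19 called higher the 4-cell mean was higher for 13. The rule chose genes for a high wildtype 4-cell level, so a lower MZrlig1 mean there is partly fixed by the choice. Over the 200 genes the median log2 ratio of MZrlig1 to wildtype at 4-cell was -0.17 on the CPM scale, against 0.01 over 12636 genes. These counts are therefore a description. The log2 fold changes of the lower calls ran between -3.11 and -0.28, with a median of -0.94. Among the first genes of the rule, cldng had 191 and 215 CPM in MZrlig1, against 415 and 485 CPM in wildtype (log2 fold change -0.96 ± 0.09, edgeR adjusted p = 9.77e-06). Its 4-cell levels were 4028, 2979.6, 2126 and 1713 CPM in MZrlig1 and 3593, 3256, 3081 and 2612 CPM in wildtype, which overlapped. For h2af1al the sphere levels were 297 and 271 CPM, against 677 and 833 CPM (-1.23 ± 0.09, adjusted p = 5.66e-06). Its 4-cell pools ranged between 2245 and 7799 CPM in MZrlig1 and between 3396 and 8971 CPM in wildtype, which also overlapped. Whether these genotype differences changed between the stages was not tested.

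The group of oocyte, meiosis and egg activation genes had 12 identifiers among the 200, of which 8 were called lower and 2 higher at sphere. Of the whole list, 8 of 25 tested were lower and 7 higher. Lower were cldnd, cldng, org, fbxo43, BTG4, an adaptor of the deadenylase that removes maternal mRNA in mouse oocytes, ZAR1L, MOS, a kinase of meiotic maturation, and bmp15, an oocyte ligand of the TGF-beta family. BTG4 had 64.2 and 55.0 CPM in MZrlig1, against 84.7 and 89.8 CPM in wildtype (-0.37 ± 0.11, edgeR adjusted p = 0.0194), while its 4-cell range was 245 to 321 CPM in MZrlig1 and 262 to 295 CPM in wildtype. Higher was WEE2 (0.24 ± 0.06, adjusted p = 0.011), though its sphere pools overlapped between the genotypes on the CPM scale. Also higher was figla, a transcription factor of egg coat genes (1.14 ± 0.32, adjusted p = 0.0141). For figla the pools did not overlap at 4-cell either: it had 25, 21.7, 17.5 and 17.8 CPM at 4-cell in MZrlig1, against 13.9, 10.0, 12.6 and 7.70 CPM in wildtype. Not called were h1m, at 1545 and 1495 CPM in MZrlig1 and 1542 and 1764 CPM in wildtype, and the oocyte ligand GDF9.

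The germ plasm and piRNA genes had 10 identifiers among the 200, of which 6 were called lower and none higher at sphere, while of the whole list 11 of 23 tested were lower and 4 higher. Lower were the tudor genes tdrd7a and TDRD1, the germ plasm messages ca15b and rgs14a, the germ cell RNA-binding protein gene DND1 and the piRNA pathway gene ASZ1. DND1 had 19.5 and 19.1 CPM in MZrlig1, against 41.9 and 37.4 CPM in wildtype (-0.86 ± 0.15, edgeR adjusted p = 0.000733). By shield it had 7.97, 10.4 and 10.8 CPM in MZrlig1 and 15.4, 12.9 and 14.2 CPM in wildtype, without overlap. Not called were DAZL, NANOS3, pld6 and buc, the organiser of the Balbiani body of the oocyte. DAZL had 53.7 and 43.7 CPM at sphere in MZrlig1 and 49.9 and 57.7 CPM in wildtype. For buc the spread between the MZrlig1 pools was large, with 269 and 155 CPM, against 396 and 414 CPM in wildtype (-0.75 ± 0.29, adjusted p = 0.138). At shield it had 2.36, 6.86 and 81.6 CPM in MZrlig1, against 7.24, 5.12 and 5.43 CPM in wildtype, and pool c alone held the high value.

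Of mRNA storage and decay genes, 5 were among the 200. LSM14B, BTG4, ZAR1L and patl2 were called lower at sphere and pabpn1l higher, while of the whole list 17 of 54 tested were lower and 13 higher. In LSM14B the fold change was -0.30 ± 0.09 (edgeR adjusted p = 0.0181) and in pabpn1l 0.24 ± 0.09 (adjusted p = 0.0476). The sphere pools of pabpn1l overlapped between the genotypes on the CPM scale. Of early cell cycle genes, CCNA1, a cyclin, and birc5b, a survivin of the chromosomal passenger complex, were lower and WEE2 higher, and of the whole list 9 of 42 were lower and 11 higher. CCNA1 had 845 and 708 CPM in MZrlig1, against 1253 and 1258 CPM in wildtype (-0.51 ± 0.08, adjusted p = 0.000304). Egg coat genes were represented by zpd, called higher, and zp3f.2, not called, and of the whole list 3 of 22 were lower and 5 higher. Oocyte chromatin genes had h2af1al lower and h1m not called, with 3 of 15 lower and 7 higher in the whole list.

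The list of genes with maternal-effect mutants had 7 identifiers here. Called lower were kpna7, an importin alpha of oocytes, BTG4 and birc5b, and gdf3 was called higher, while nanog, buc and hwa, the dorsal determinant huluwa, were not called. In the whole list 6 of 24 were lower and 6 higher. For kpna7 the fold change was -0.99 ± 0.09 (edgeR adjusted p = 6.92e-06). The genome activation list had nanog alone among the 200, with 3 of 14 lower and 5 higher in the whole list. In all, 34 of the 200 genes are on a list.

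The TGF-beta ligand gene gdf3, the zebrafish Vg1 that acts with Nodal, was higher in MZrlig1 at 4-cell and sphere without overlap. It had 774, 846, 623 and 705 CPM at 4-cell in MZrlig1, against 411, 408, 415 and 358 CPM in wildtype, and 621 and 671 CPM at sphere, against 324 and 321 CPM. At shield it had 50.3, 95.9 and 118 CPM in MZrlig1, against 53.8, 63.3 and 49.5 CPM in wildtype, where the groups overlapped. The sphere fold change was 1.19 ± 0.07 (log2, SE; edgeR adjusted p = 4.75e-07). At 5 dpf gdf3 was at 5.11, 6.28 and 5.68 CPM in MZrlig1 larvae, against 0.291, 0.390 and 0.534 CPM in wildtype larvae, the group on which the rule set its limit. In heads of good responders it had 6.66 and 7.30 CPM in MZrlig1 and 4.7 to 7.6 CPM in wildtype, and in bad responders 4.78 to 7.96 CPM and 2.6 to 4.6 CPM. The near absence of gdf3 from wildtype whole larvae was therefore not matched in wildtype heads, which were raised in another light cycle and counted in a separate table.

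Larger genotype differences were found in genes of lower level. At sphere the largest falls among called genes without overlap were those of pla2g4f.2 (-3.11 ± 0.38, edgeR adjusted p = 0.000115), ENSDARG00000094737 (-2.19), si:ch73-269g14.1 (-2.10) and ENSDARG00000117638 (-1.91). For pla2g4f.2, named as a phospholipase A2, the difference was already there at 4-cell, with 1.97, 2.73, 6.96 and 2.11 CPM in MZrlig1, against 19.9, 18.8, 13.3 and 19.5 CPM in wildtype. The largest rises were those of CRYGS, tnfsf10l4 (2.54 ± 0.71, adjusted p = 0.0146), gdf3 and figla. Single pools moved several of these. For pla2g4f.2 the value was -4.18 without MZrlig1 pool e and -2.50 without f, and for si:ch73-269g14.1 it was -1.53 and -3.06. For tnfsf10l4 it was 2.08 without MZrlig1 pool e and 1.82 without wildtype pool d, neither of them called, and 3.98 without wildtype pool f. The call of ENSDARG00000094737 was lost without wildtype pool d or f, that of CRYGS without wildtype pool f, and that of figla without MZrlig1 pool f (0.73) or wildtype pool f (0.95). CRYGS had 37 counts over the MZrlig1 sphere pools and 2 over the wildtype ones, a ratio per total count of 19.5 with an exact 95% interval of 5.02 to 167 that covers counting error only. For tnfsf10l4 the 4-cell order was the opposite, with 3.19, 3.00, 11.4 and 7.02 CPM in MZrlig1, against 30.7, 29.1, 31.6 and 5.42 CPM in wildtype, where pool f fell in the MZrlig1 range.

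The same wildtype pool, f, departed from the other wildtype 4-cell pools in several of the genes with the largest genotype differences at that stage. The message si:ch211-59h6.1 had 65.0, 48.2, 65.0 and 76.2 CPM in MZrlig1 and 21.9 CPM in wildtype pool f, against 0 in wildtype pools a, b and c. For zgc:113425 the levels were 257, 237, 185 and 180.4 CPM in MZrlig1, against 14.8, 9.80, 14.9 and 103 CPM in wildtype. For si:ch211-261a10.5 they were 38.4, 47.1, 31.0 and 28.6 CPM in MZrlig1, against 3.63, 3.75, 3.07 and 16.6 CPM in wildtype. In each of the 3, pool f lay between the other wildtype pools and all MZrlig1 pools. Over the 200 genes the 4-cell pools did not overlap for 14 genes higher and 14 lower in MZrlig1, against 4.57% and 5.57% of all genes. Some maternal messages varied from pool to pool: si:dkey-15n5.6 had 50, 10.4, 0 and 3.32 CPM in MZrlig1 pools and 43.9, 62.9, 61.7 and 67.4 CPM in wildtype ones.

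**Figure D5:**
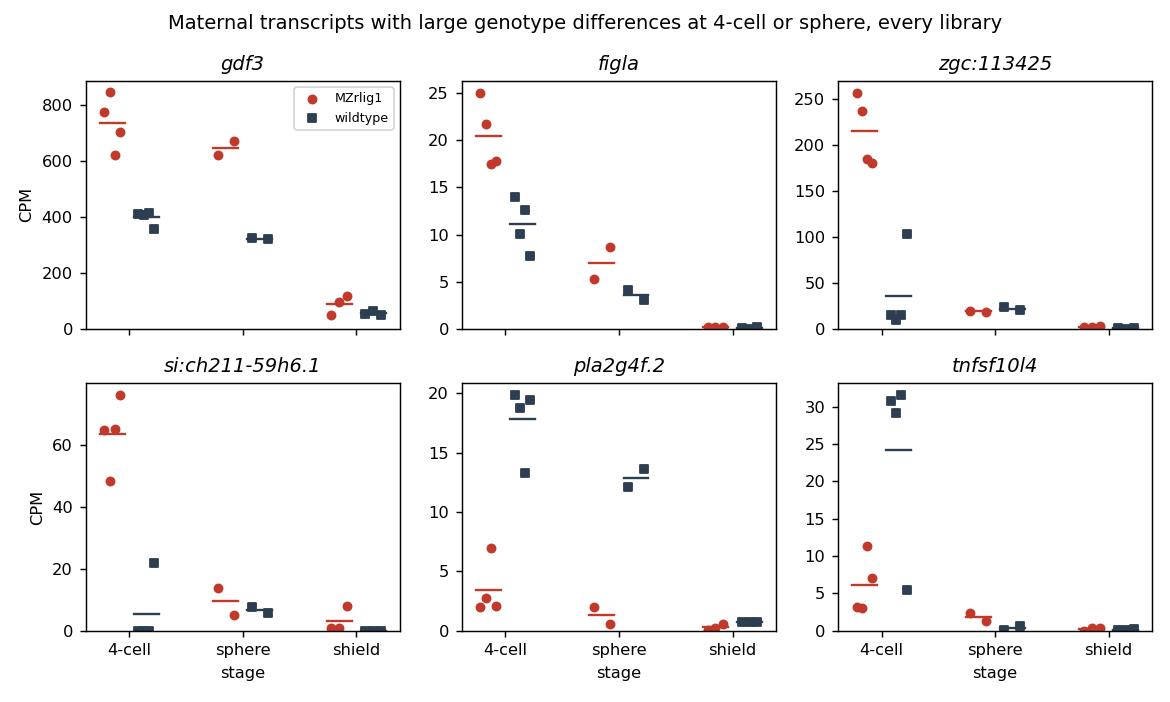
Level (CPM) in every pool at 4-cell, sphere and shield of gdf3, figla, zgc:113425, si:ch211-59h6.1, pla2g4f.2 and tnfsf10l4, MZrlig1 left of wildtype. In wildtype 4-cell pools, f is at 103 CPM for zgc:113425 where the others are at 9.80 to 14.9 CPM, and at 5.42 CPM for tnfsf10l4 where the others are at 29.1 to 31.6 CPM.

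Some abundant messages outside these lists, chosen here after their values were seen, went both ways at sphere. The CCCH zinc finger gene cth1 had 346 and 332 CPM in MZrlig1, against 749 and 812 CPM in wildtype (-1.02 ± 0.07, edgeR adjusted p = 9.29e-07). Its 4-cell pools, of 2946 to 5243 CPM in MZrlig1 and 4371 to 6058 CPM in wildtype, overlapped. GTF3A and 42sp43, whose products in Xenopus oocytes store 5S RNA, were higher. GTF3A had 414 and 407 CPM in MZrlig1, against 273 and 293 CPM in wildtype (0.72 ± 0.07, adjusted p = 1.23e-05), and 42sp43 had 102 and 87.0 CPM, against 79.9 and 74.2 CPM.

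At shield, which the rule used in wildtype, 10 of 132 genes lay entirely higher and 8 entirely lower in MZrlig1, against 12.1% and 15.1% of all genes. At bud, which the rule did not use, edgeR called none of 79 genes in either direction, where 0.454% of all genes tested were called higher and 0.36% lower, and 12 of the 79 had an unadjusted p under 0.05, against 12.5% of all genes. With the replicate letter as a block, 264 of all genes were called, against 129 without it, and still none of the 79. DESeq2 called 3 of the 79 at bud, si:ch211-59h6.1 and btr18 higher and ELAVL2 lower, where it called 1.99% of all genes higher and 2.01% lower, a like share. ELAVL2, a gene for an RNA-binding protein of the Hu family, had 0.833, 1.33 and 1.49 CPM in MZrlig1, against 4.39, 4.65 and 3.36 CPM in wildtype (edgeR -1.86 ± 0.34, adjusted p = 0.0677). At shield its levels were 9.15, 14.1 and 13.6 CPM in MZrlig1 and 10.2, 10.4 and 12.1 CPM in wildtype, where the genotypes overlapped. By overlap at bud, 8 of 63 genes lay entirely higher and 12 entirely lower, against 13.8% and 9.15% of all genes.

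Traces remained later. At 1 dpf the genes summed to 54.1, 134 and 119.9 CPM in MZrlig1 and 107, 108 and 113 CPM in wildtype, and 32 genes in MZrlig1 and 27 in wildtype had a mean of at least 1 CPM. Of 37 genes at 1 CPM or more in a genotype, 1 lay entirely higher and 1 entirely lower in MZrlig1, against 1.26% and 11% of all such genes. The highest wildtype levels there were those of fam117ab, the tudor gene rnf17, bdp1 and SLC25A37, a mitochondrial iron importer. At 5 dpf the sums were 73.9, 66.7 and 93.7 CPM in MZrlig1 larvae and 49.2, 49.4 and 48.5 CPM in wildtype larvae. The rule kept each gene's wildtype mean under 1 CPM at this stage and placed no limit on MZrlig1, where 19 genes were at or above it, so the direction is set by the choice. These 19 genes passed that level through MZrlig1 alone and none could have a lower mean there. Of them 10 lay entirely higher and none lower in MZrlig1, beside 7.28% and 10.2% of all genes, and nothing is read from these counts.

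The order of the sums in whole larvae was set by the rule, so its contrast with heads is not read. In heads the sums were lower in MZrlig1 pools. They were 68.7 and 72.6 CPM in MZrlig1 good responders, against 85.4 to 102 CPM in wildtype ones, and 61.9 to 70.9 CPM in MZrlig1 bad responders, against 95.6 to 98.5 CPM in wildtype ones. The genes cdh29, a cadherin gene, and hpdl accounted for most of this. Heads had 3.62 and 2.37 CPM of cdh29 in MZrlig1 good responders, against 13.9 to 24.7 CPM in wildtype, and 2.79 to 4.98 CPM in MZrlig1 bad responders, against 22.9 to 27.0 CPM in wildtype. In whole larvae cdh29 was at 4.96, 2.71 and 2.67 CPM in MZrlig1 and 1.02, 0.714 and 0.534 CPM in wildtype. The rule kept the wildtype mean there under 1 CPM, so this order is partly set by the choice and no reversal is read. With cdh29 and hpdl left out, a choice made after seeing the values, the head sums of good responders were 64.4 and 68.8 CPM in MZrlig1 and 63.0 to 75.4 CPM in wildtype, which overlap.

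Maternal messages still found in the wildtype larva served as the nearest comparison. No rise after shield was required of them, so renewed making by the larva is not shown. From the genes with a wildtype 5 dpf mean of 1 CPM or more, the 200 with the largest ratio of 4-cell to shield had a median share left at sphere of 21.6% in MZrlig1 and 33.3% in wildtype. At shield the medians were 3.79% in MZrlig1 and 2.24% in wildtype, and at bud 3.42% and 3.31%. The strictly maternal genes were at 50.4% and 53.7% at sphere, 5.74% and 4.47% at shield and 0.850% and 0.922% at bud. They had thus more left at sphere and at shield and less at bud in both genotypes. Both sets were ranked by the same 4-cell and shield levels and differ in the size of that ratio. They were also split by the wildtype 5 dpf level, which can bear on the level at bud. These medians are therefore a description without a test.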

How the data were processed

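RNA was extracted with TRIzol and libraries were poly(A)-enriched, per the labels' protocols. The submitters' processing notes name STAR 2.7.10b, Salmon 0.14.1, DESeq2 1.42.1 and GRCz11 without their roles. How reads of overlapping, antisense or near-identical genes were counted is not given in the sources used here, so values of such genes are uncertain. The authors deposited raw counts per gene and FPKM. The FPKM served for levels between genes and for relative length, and all tests used the counts.

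Of 37241 genes listed, 4721 without values were left out. Levels are CPM by total count. A count of 3, the limit that a count of 0 allows, is worth 0.163 to 0.244 CPM in whole-embryo libraries, which covers counting error only. Genes were tested with the quasi-likelihood test of edgeR 4.0.16 (R 4.3.3), after filterByExpr and TMM scaling and with robust estimation, adjusted by Benjamini-Hochberg over all genes of the comparison. A gene was called at an adjusted p under 0.05. The standard error (SE) is the absolute log2 fold change over the square root of F. Genotype was tested at sphere and bud, each fitted alone, the MZrlig1 stages in 1 fit of 12 libraries, and wildtype bud against sphere in 1 fit of 5. The tests ran correctly on simulated counts, which had the same dispersion for every gene and 200 changed genes. This setting is simpler than the real counts, so it checks the running of the tests only. Alternatives were DESeq2 1.42.0, other size factors, no filter, more libraries in the fit, a replicate block and leaving out each library. Tables were made with Python 3.11.15 and pandas 2.3.3.

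The members and lists were chosen with earlier results of these data known. The genes named were set by rule: the first 10 and the limits, list members, the 4 largest changes in each direction among called genes without overlap, the extremes of the share left at sphere, of the 4-cell to shield fall and of the 4-cell genotype difference, and the highest at 1 dpf and in heads. Others, ELAVL2 and casp23 among them, were chosen after their values were seen, as was the list member DND1 for the values given. Replicate letters paired the bud pools: the deviations of same-lettered MZrlig1 and wildtype pools correlated at 0.357, 0.486 and 0.327, and with the letter as a block 0 of the genes were called at bud in either direction, as without it. Sequences of these genes are not used here.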

Additional observations from a re-analysis of the deposited data

Results flagged for a closer look

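In a group of 4 pools, a pool was marked when its gap to the nearest other pool took up more than 0.829 of the group's range. Of 94 groups of pools examined, 11 were marked, and chance marks about 1 group in 20. Some of the genes were named for extreme values in these same pools, so that rate does not hold for them and no excess is read. Among MZrlig1 4-cell pools the gap was 0.848 of the range for pla2g4f.2, where pool d stood highest, and 1.0 for traj39, found in pool b alone.

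Among wildtype 4-cell pools the gap was 1.0 for si:ch211-59h6.1, 0.946 for zgc:113425, 0.95 for si:ch211-261a10.5, 0.905 for tnfsf10l4 and 0.869 for gdf3, and pool f was the separate one in all 5. It was 0.844 for kpna7, 0.842 for ENSDARG00000117638, 0.836 for pla2g4f.2 and 0.88 for si:rp71-45k5.2.

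The tudor gene rnf17 was marked because its genotype difference had opposite signs at 2 stages. It had 31.8 and 30.3 CPM in MZrlig1 sphere pools, against 49.0 and 48.9 CPM in wildtype ones, and 4.44, 3.87 and 3.72 CPM at bud, against 2.26, 2.84 and 2.3 CPM. The bud difference was 0.532 on the log2 scale of the group means plus 1 CPM. It was not called by edgeR (0.58 ± 0.26, adjusted p = 0.436), so the change of sign is not established. The difference between the stages was not tested.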

How the results depend on the processing

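The choice of genes kept 152 to 187 of the 200 with TMM scaling, FPKM, other pseudocounts or a 5 dpf limit of 0.5 CPM, and 193 to 197 without any 1 wildtype library, but 87 with a 5 dpf limit of 5 CPM. At sphere the lower calls (54) were 1 with all 36 whole-embryo libraries in the fit and 6 without MZrlig1 1 dpf pool a in it, and the higher calls (19) were 0 and 1 in those fits and 8 to 24 without single libraries. At bud, where no gene was called, 1 was lower by DESeq2, with all 36 libraries and without MZrlig1 1 dpf pool a, and 1 higher without a filter and 2 by DESeq2. Without wildtype bud pool b there were 1 lower and 1 higher, and over all single libraries left out the range was 0 to 1 in each direction. The lower calls of MZrlig1 sphere against 4-cell (97) were 62 to 84 without single libraries. Scaling by TMM gave medians left at sphere of 47.0% in MZrlig1 and 45.0% in wildtype, and without single wildtype libraries the wildtype median was 51.8% to 55.5%. The TMM medians and the medians without single libraries were added after seeing the data. The cause of these changes was not tested.

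Replicate letters shared by the MZrlig1 stages did not pair them by the test used: same-lettered shield and bud pools correlated at 0.039, 0.206 and 0.115. With the letter as a replicate block, 59 genes were called lower between 4-cell and sphere and 118 between sphere and shield. No paired analysis was possible at sphere, because the genotypes share 1 letter there, or for wildtype bud against sphere, which share none. At 3 counts the libraries resolve no level under 0.163 CPM.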

Other observations

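The same rule on the MZrlig1 means gave 200 genes of which 155 (77.5%) were those chosen in wildtype. Of the 45 that dropped out, 19 had an MZrlig1 5 dpf mean of 1 CPM or more. Among the genes it brought in was casp23, a caspase gene, at a mean of 25.2 CPM at 4-cell in MZrlig1, against 0 in wildtype.

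The message si:ch211-59h6.1 had no count in wildtype whole larvae at 5 dpf, against 5.41, 5.75 and 5.96 CPM in MZrlig1 larvae. The rule required a wildtype mean under 1 CPM there, so that order is partly set by the choice. The message was present in heads of both genotypes. It had 2.88 and 4.47 CPM in MZrlig1 heads of good responders and 3.32 to 4.24 CPM in wildtype ones, and 2.82 to 4.65 CPM and 3.78 to 4.50 CPM in bad responders.

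In heads hpdl had 0.658 and 1.38 CPM in MZrlig1 good responders, against 3.04 to 4.08 CPM in wildtype ones, and 0.507 to 1.15 CPM in MZrlig1 bad responders, against 3.88 to 4.83 CPM in wildtype ones, without overlap. The name hpdl is shared with another identifier, so reads could be split between copies.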
